A study of Mus musculus with 6 samples.

Results

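Solute carriers are membrane proteins that move nutrients, metabolites and ions across the plasma membrane or the membranes of organelles. The set described here holds the carriers of the Slc1, Slc2, Slc3, Slc5, Slc6, Slc7, Slc13, Slc15, Slc16, Slc27, Slc30, Slc36, Slc38 and Slc39 families, chosen by gene symbol alone, on bead arrays of mouse colon mucosa. By that rule it has 245 of the 45135 probes on the array, for 132 of the 19031 gene symbols named there. Of these symbols, Slc7a6os, a gene on the strand opposite Slc7a6, and Slc2a4rg-ps, a pseudogene, are no carriers and were set aside, which left 130 carrier genes. The carriers were read by substrate as amino acid, sugar, monocarboxylate, peptide and zinc carriers, with a remainder that takes other substrates.

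In the intestine, absorptive cells carry sodium- or proton-coupled carriers on the side facing the lumen, which draw nutrients in against a gradient, and facilitated carriers or exchangers on the side facing the blood. Most sugar, peptide and amino acid uptake takes place in the small intestine. The colon instead takes up short-chain fatty acids made by bacteria, in part through monocarboxylate carriers. Zinc carriers fall into a family that brings zinc into the cytosol (Slc39, or ZIP) and a family that takes it out, into vesicles or out of the cell (Slc30, or ZnT).

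Mucosa was taken from the colon of 6 mice, and the RNA of each mouse was hybridised to 1 array. All 6 mice were 5 months old, on a C57/B6 background, heterozygous for Min, a mutation of the tumour suppressor Apc that leads to intestinal tumours, and homozygous for a floxed allele of Dnmt3a, a de novo DNA methyltransferase (2 floxed alleles in every mouse, controls included). The 3 mice called Dnmt3a-deleted here also carried 1 copy of a Cre transgene driven by a promoter named Fabpl(4x at -132) in the labels, and the 3 control mice carried no Cre. Per the design text, the deletion reached 30 to 50% of mucosa cells, so a Dnmt3a-deleted sample is a mixture of deleted and undeleted cells, and a lower level from fewer cells of a type and from less RNA per cell cannot be told apart. Each sample is a separate animal.

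The question was whether the carriers differ between the Dnmt3a-deleted and the control mucosa. Values below are normalized log2 intensities, and a difference is the Dnmt3a-deleted mean minus the control mean on that scale. Mean signals ran from 353 to 379 on 5 arrays and stood at 285 on that of Dnmt3a-deleted replicate 3. That array stood apart: its correlations with the others ran from 0.925 to 0.95, against at least 0.978 among the other 5. Its mouse was female and the other Dnmt3a-deleted mice were not, while control replicates 2 and 3 were female and control replicate 1 male, as read from sex-linked genes. None of the 3 Dnmt3a probes was detected on any array (0 of 3), so no value for the deletion itself can be given. Epithelial markers gave summed linear levels of 40600 to 52800 on the 6 arrays, and 0 of the 5 endothelial markers was detected on enough arrays to be tested. Colonocyte markers summed to 45600 to 57200 on 5 arrays and to 26200 on that of Dnmt3a-deleted replicate 3. All 5 tested markers of proximal and small intestine, of 8 listed, had lower means in Dnmt3a-deleted mucosa (median difference -0.39). Their mean deviation from the average of the 6 arrays was 1.46 in control replicate 1 and -0.57 to -0.05 on the other arrays. The part of such tissue in the carriers' values was not tested.

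The promoters of 3 carriers are shown first. Slc15a2 and Slc30a4 were taken because they were called detected in Dnmt3a-deleted samples alone. Both read close to the lowest detected level, 5.09 to 5.14 by array, so that call rests on small differences at the detection limit. Slc7a11 was taken because it holds a motif of the amino acid starvation response. CpG dinucleotides are marked because Dnmt3a methylates them. The windows are RefSeq sequences of build GRCm38.p6, each 300 bases around the annotated start and written 5′ to 3′ on the gene's strand. In the windows of Slc15a2, a peptide carrier (chr16:36784913-36785212, minus strand), and of Slc30a4, a zinc efflux carrier (chr2:122702614-122702913, minus strand), capitals mark each CpG. In the window of Slc7a11, the cystine importer (chr3:50443564-50443863, minus strand), capitals mark matches to TGATGNAA on either strand, a core of the amino acid response element.
Slc15a2: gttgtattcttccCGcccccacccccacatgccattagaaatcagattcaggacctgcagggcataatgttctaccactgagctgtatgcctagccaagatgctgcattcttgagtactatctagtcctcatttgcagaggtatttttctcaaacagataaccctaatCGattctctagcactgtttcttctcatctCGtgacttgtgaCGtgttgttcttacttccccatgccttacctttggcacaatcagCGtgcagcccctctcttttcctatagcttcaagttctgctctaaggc
Slc30a4: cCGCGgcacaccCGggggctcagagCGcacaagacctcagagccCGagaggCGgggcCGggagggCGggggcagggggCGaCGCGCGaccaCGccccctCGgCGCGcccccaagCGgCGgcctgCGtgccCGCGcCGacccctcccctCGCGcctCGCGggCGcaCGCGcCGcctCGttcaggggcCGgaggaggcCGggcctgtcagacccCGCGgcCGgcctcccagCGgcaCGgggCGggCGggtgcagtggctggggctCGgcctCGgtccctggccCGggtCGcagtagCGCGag
Slc7a11: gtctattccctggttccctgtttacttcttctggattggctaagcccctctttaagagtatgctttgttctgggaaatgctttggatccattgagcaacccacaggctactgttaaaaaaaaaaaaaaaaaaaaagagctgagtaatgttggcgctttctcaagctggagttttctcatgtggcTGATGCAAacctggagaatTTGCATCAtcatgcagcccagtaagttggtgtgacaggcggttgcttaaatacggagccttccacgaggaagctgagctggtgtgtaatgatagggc
The Slc15a2 window held 5 CpG, an observed over expected ratio of 0.33, and the Slc30a4 window 46 CpG, a ratio of 0.92. The Slc7a11 window held 2 matches to TGATGNAA, and 4 CpG. These matches describe the letters of the windows; binding and methylation were not measured here.

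Of the 130 carrier genes, 85 had a probe detected on at least 3 of the 6 arrays and were tested, beside all 11370 genes tested. The best probe of 29 carriers was detected on no array. Among them were Slc7a1, a cationic amino acid carrier, Slc2a5, the fructose carrier, Slc16a7, a monocarboxylate carrier, and Slc39a10, a zinc importer. Slc3a2, the heavy chain that partners several Slc7 light chains, was detected on 1 array. For these the arrays give no level, which does not show that the carriers are absent.

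No carrier passed the test (limma with Benjamini-Hochberg adjustment, threshold 0.05): 0 of 85, against 1 of 11370 genes, or 0.0088%. At an unadjusted p under 0.05 there were 4 of 85 carriers (4.71%), where all genes gave 5.22%. Of these 3 were higher and 1 lower, against 3.07% and 2.15% of all genes. The higher ones included Slc15a2 and Slc30a4, which passed the detection filter through the Dnmt3a-deleted group alone. The groups did not overlap, meaning that all 3 Dnmt3a-deleted values lay on the same side of all 3 control values, for 9 of 85 carriers (10.6%), against 14.5% of all genes. Of these 7 were higher and 2 lower, against 9.22% and 5.3% of all genes. Slc15a2 and Slc30a4 were again among the higher. With genes detected on all 6 arrays only, 1 of 63 carriers (1.59%) had an unadjusted p under 0.05 (limma), against 4.88% of all such genes. There the groups did not overlap for 4 carriers (6.35%), against 14.7%. These shares lie near or under the background of all genes. The median difference of the carriers was 0.04 and that of all genes 0.05, and 57.6% of carriers were higher in Dnmt3a-deleted mucosa, against 58.3% of all genes. Differences ran from -1.06 to 0.66, and that of 1 carrier, Slc2a6, was larger than 1 in size.

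**Figure D1:**
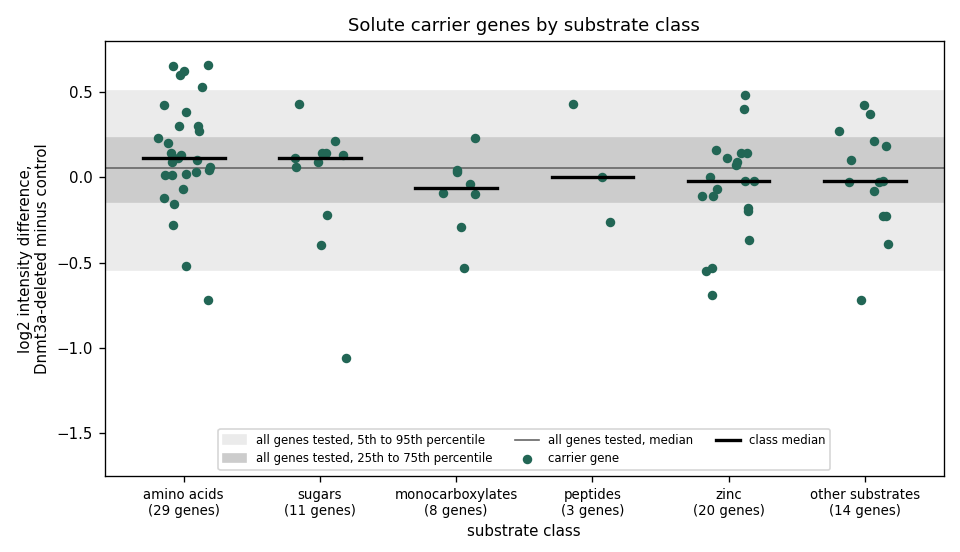
Difference in log2 intensity between Dnmt3a-deleted and control mucosa (vertical axis) for each tested carrier (points), by substrate class; black bars are class medians, and the grey bands and line show where all 11370 genes tested lie. Amino acid carriers spread from -0.72 to 0.66 around a median of 0.11, and most points of every class lie inside the outer grey band.

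Amino acid carriers made the largest class, with 46 genes on the array and 29 tested. Of the 29, 23 were higher and 6 lower in Dnmt3a-deleted mucosa, with a median difference of 0.11, and 0 passed the test. This split depended on the arrays used: without control replicate 3 it was 17 higher and 12 lower, and without Dnmt3a-deleted replicate 3 it was 22 and 7. It also moved with the scaling. When arrays were scaled to a common median, the median of all genes moved from 0.055 to -0.051, and 17 amino acid carriers were higher and 12 lower. The share of all carriers that were higher went from 57.6% to 40%, and that of all genes from 58.3% to 41.9%. Of the 29 amino acid carriers, 18 lay above the median of all genes before this scaling and 19 with it.

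Slc6a7, a sodium-coupled proline carrier known mainly from the brain, read 5.76, 6.25 and 5.78 in control replicates 1 to 3 and 6.40, 6.83 and 6.44 in Dnmt3a-deleted replicates 1 to 3. The groups did not overlap, and the array that stood apart lay between the other Dnmt3a-deleted values. Before normalization the groups overlapped. The unprocessed signal of Dnmt3a-deleted replicate 3, the dimmest array, was 118, under the 137 and 121 of control replicates 2 and 3. The difference was 0.62 ± 0.21 (SE, n = 3 and 3, as for every difference below), with an adjusted p of 0.7 from limma. Without Dnmt3a-deleted replicate 3 it was 0.68.

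Slc7a11, which imports cystine in exchange for glutamate and whose promoter window is printed above, read 5.35, 5.18 and 4.84 in control mucosa and 5.60, 5.41 and 5.64 in the Dnmt3a-deleted mice. Its groups did not overlap, but the lowest Dnmt3a-deleted value lay close to the highest control value, and the probe was detected in 1 of 3 control and 3 of 3 Dnmt3a-deleted samples. The difference was 0.42 ± 0.18. Its other kept probes gave 0.11 and 0.00. The unprocessed signal of 97.1 in Dnmt3a-deleted replicate 3 lay under the 98.8 of control replicate 1, so before normalization the groups overlapped. Slc6a18, a neutral amino acid carrier known mainly from the kidney, had a difference of 0.23 ± 0.15, with values of 5.27 to 5.43 in the control mice and 5.46 to 5.61 in the Dnmt3a-deleted mice. The groups touched closely without overlap. Before normalization they overlapped, with an unprocessed signal of 96.6 in Dnmt3a-deleted replicate 3 and of 102 in control replicate 2.

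Slc1a5, a sodium-dependent exchanger of glutamine and other neutral amino acids, was the carrier with the smallest p among those lower. It read 5.79, 6.30 and 6.09 in control mucosa and 5.48, 5.83 and 4.71 in the Dnmt3a-deleted mice. The groups overlapped, because Dnmt3a-deleted replicate 2 lay above control replicate 1, and replicate 3, where the probe was not detected, was the lowest. The difference was -0.72 ± 0.29 with all 6 arrays and -0.41 without Dnmt3a-deleted replicate 3. Its other kept probes gave -0.38 and -0.25. Slc38a1, which also takes up glutamine with sodium, went from -0.52 to -0.15 when that array was left out. With all 6 arrays, the other kept probes of Slc38a1 gave -0.11 and -0.02.

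Among amino acid carriers well above background, Slc38a2, a sodium-coupled neutral amino acid carrier, read 9.75, 9.77 and 10.34 in the control mice and 9.96, 10.28 and 11.19 in the Dnmt3a-deleted mice. The groups overlapped and Dnmt3a-deleted replicate 3 was the highest. The difference of 0.53 ± 0.33 became 0.17 without it, and its other kept probe gave 0.10. Slc1a4, an exchanger of alanine, serine and cysteine, differed by 0.20 ± 0.31 and Slc7a4, an orphan relative of the cationic amino acid carriers, by 0.27 ± 0.27, which became 0.01 without Dnmt3a-deleted replicate 3.

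Slc1a1, Slc36a1 and Slc7a9 were among the amino acid carriers above the control range in Dnmt3a-deleted replicates 1 and 3 and inside it in replicate 2. Slc1a1, the glutamate and aspartate carrier of intestinal epithelium, read 7.64, 8.38 and 8.46 in control mucosa and 8.88, 8.15 and 9.24 in the Dnmt3a-deleted mice. A second probe of the gene followed it on every array, with a difference of 0.58 beside 0.60 ± 0.33. Slc36a1, a proton-coupled carrier of small amino acids, read 6.00, 6.62 and 6.33 against 7.10, 6.33 and 7.50 (difference 0.66 ± 0.31). Slc7a9, the light chain of the carrier of cystine and basic amino acids, read 8.34, 7.85 and 7.52 against 9.17, 8.01 and 8.48 (difference 0.65 ± 0.33). Its other kept probes gave -0.14 and 0.42. At the latter, replicate 3 read 6.83, no higher than the lowest control value of 6.83, so the split was seen at 1 of the 3 probes. Without replicate 3 the differences of Slc1a1, Slc36a1 and Slc7a9 were 0.36, 0.40 and 0.69.

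The same split of the Dnmt3a-deleted mice was counted over all carriers. Replicates 1 and 3 lay above the control range and replicate 2 inside it for 6 carriers (7.06%, against 7.92% of all genes). Added to the genes above were Slc39a7, a zinc carrier of the endoplasmic reticulum and Golgi, Slc6a12, a betaine carrier, and Slc7a14, of the amino acid class. Replicates 1 and 3 lay below and replicate 2 inside for 7 carriers (8.24%, against 5.39% of all genes). These were Slc16a5, Slc1a5, Slc2a6, Slc30a10, Slc38a1, Slc39a8 and Slc7a6. Replicate 2 was the Dnmt3a-deleted mouse with the fewest carriers outside the control range, 38.8%, against 52.9% in replicate 1 and 65.9% in replicate 3. Over all genes the shares were 46%, 50.8% and 76.1% in the order of replicates 2, 1 and 3.

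**Figure D2:**
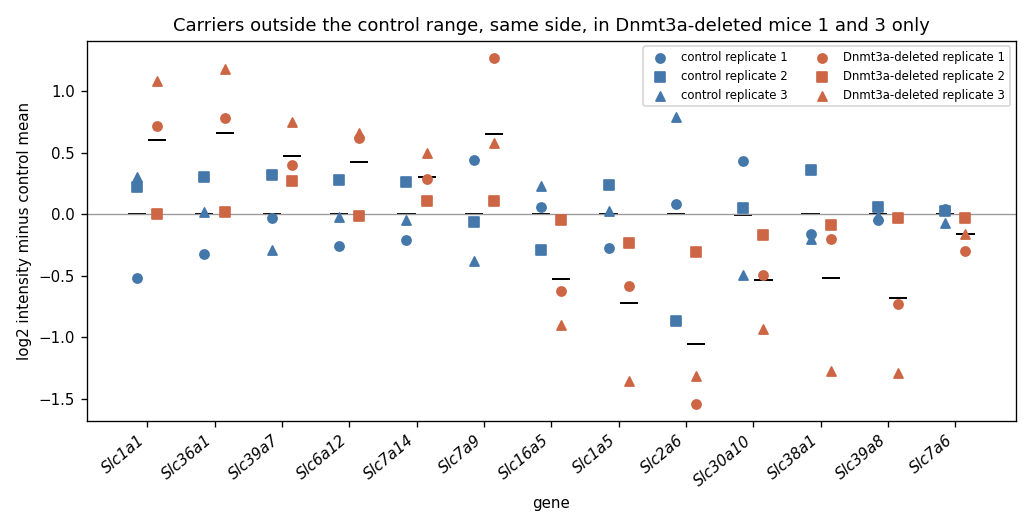
Log2 intensity minus the control mean (vertical axis) of the 13 carriers for which Dnmt3a-deleted replicates 1 and 3 lay outside the control range on the same side and replicate 2 lay inside it; points are mice, short bars group means. Replicate 2 (red squares) stays among the blue control points for all 13 genes, by the way they were chosen.

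Of the 19 sugar carriers on the array, 11 were tested, 8 higher and 3 lower, with a median difference of 0.11 and 0 past the test. Without Dnmt3a-deleted replicate 3 they split into 5 higher and 6 lower, and so they did with median scaling. Slc2a3, a high-affinity glucose carrier, read 5.93, 6.18 and 5.70 in the control mice and 5.53, 5.61 and 5.48 in the Dnmt3a-deleted mice. It was 1 of the 2 carriers with all Dnmt3a-deleted values below all control values, with a difference of -0.40 ± 0.17, and -0.37 without replicate 3.

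Slc2a6, a glucose carrier of lysosomal membranes, read 7.11, 6.16 and 7.82 in control mucosa and 5.49, 6.72 and 5.72 in the Dnmt3a-deleted mice. Its groups overlapped, since Dnmt3a-deleted replicate 2 lay above control replicate 2. The difference of -1.06 ± 0.46 was the most negative of the 85 carriers, and it was -0.93 without replicate 3 and -0.66 without control replicate 3. Both Slc2a3 and Slc2a6 are known from white blood cells, and markers of those cells also had lower means. All 6 T and NK cell markers tested, of 9 listed, had lower means in Dnmt3a-deleted mucosa (median difference -1.33, 0 past the test), with summed linear levels of 2660, 2330 and 5210 in the control mice and 878, 1780 and 731 in the Dnmt3a-deleted mice. Of 5 myeloid markers, 4 were lower (median -0.73), with sums of 1320, 1590 and 1740 against 1820, 1170 and 977. The markers' part in the values of these carriers was not tested.

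Differences of the sugar carriers ran from -1.06 to 0.43. The 3 sugar carriers of highest intensity differed by less than Slc2a3 and Slc2a6. Slc2a1, the facilitated glucose carrier found in most cells, differed by -0.22 ± 0.19. Slc5a1, the sodium-coupled glucose and galactose carrier of the brush border, read 8.99 to 9.32 in control mucosa and 8.92 to 9.57 in the Dnmt3a-deleted mice, a difference of 0.09 ± 0.21. Slc2a13, which carries myo-inositol with protons, differed by 0.06 ± 0.18. For Slc5a1 the 95% interval ran from -0.40 to 0.57, so differences of that size in either direction were not resolved.

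Of 14 monocarboxylate carriers on the array, 8 were tested, 3 higher and 5 lower, with a median of -0.07 and 0 past the test. Without Dnmt3a-deleted replicate 3 the split was 5 higher and 3 lower (median 0.04), as it was without control replicate 1 (median 0.03). Slc5a8, which takes up butyrate and other short-chain fatty acids with sodium in the colon, read 11.90, 11.39 and 12.05 in the control mice and 11.77, 11.73 and 11.72 in the Dnmt3a-deleted mice. The Dnmt3a-deleted values lay inside the control range, with a difference of -0.04 ± 0.20. Slc16a5, a monocarboxylate carrier of the proton-coupled family, read 10.68, 10.33 and 10.85 against 9.99, 10.57 and 9.72. Replicates 1 and 3 were below all controls and replicate 2 was not, and the difference was -0.53 ± 0.25, or -0.34 without replicate 3. Its second probe gave -0.88, with control replicate 3 at 7.64 and the other arrays between 5.4 and 6.3.

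Slc16a3, which exports lactate, had non-overlapping groups at a low level, 5.43, 5.35 and 5.23 in control mucosa and 5.64, 5.61 and 5.46 in the Dnmt3a-deleted mice. The gap between the groups was small and the difference was 0.23 ± 0.15. Before normalization the groups overlapped, with Dnmt3a-deleted replicate 3, the dimmest array, under control replicate 1. Slc16a9, a relative reported to carry carnitine, varied by more than 1 within each group and differed by -0.29 ± 0.49. Slc16a1, the widespread lactate and butyrate carrier, was detected on 3 arrays and differed by 0.03. Bsg and Emb, the chaperones that bring Slc16 carriers to the membrane, differed by -0.18 ± 0.30 and -0.73 ± 0.35. Emb read 5.50, 5.37 and 6.78 in the control mice and 5.08, 5.13 and 5.24 in the Dnmt3a-deleted mice, so control replicate 3 stood well above the rest. Without it the difference was -0.29. That sample also had the highest summed T and NK cell level, 5210, and the part of those cells in the value was not tested.

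Of 3 tested peptide carriers, Slc15a2, a high-affinity proton-coupled carrier of short peptides known mainly from kidney and brain, read 4.84, 4.77 and 4.99 in control mucosa and 5.24, 5.27 and 5.38 in the Dnmt3a-deleted mice. It was detected in 0 of 3 control and 3 of 3 Dnmt3a-deleted samples and so entered the test through the Dnmt3a-deleted group alone. By the observed means it was at least 1.14-fold higher there, a bound that leaves out sampling error. The 95% interval of its difference ran from 0.08 to 0.78, with an adjusted p of 0.7 from limma. The unprocessed signals were 86.4, 85.4 and 92.3 against 96.6, 99.2 and 92.5, so before normalization replicate 3 lay barely above the highest control. Slc15a1, the main intestinal peptide carrier, read 5.30, 6.02 and 5.77 against 6.27, 5.49 and 5.33, with a difference of 0.00 ± 0.29. Its other kept probe gave -0.32, with Dnmt3a-deleted replicates 2 and 3 at 5.22 and 5.05, below all controls. Slc15a4, a carrier of histidine and peptides on lysosomes, differed by -0.26 ± 0.25, and by -0.01 without replicate 3. With all 6 arrays its other kept probe gave -0.19.

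Zinc carriers numbered 23 on the array and 20 tested, 8 higher and 12 lower, with a median of -0.02 and 0 past the test. With median scaling 4 were higher and 16 lower, and without control replicate 1 the split was 12 and 8. Of the importers of the Slc39 family 4 of 11 were higher, and of the Slc30 family 4 of 9. Slc30a4, which moves zinc into vesicles, read 5.25, 5.00 and 4.91 in the control mice and 5.49, 5.41 and 5.45 in the Dnmt3a-deleted mice. Like Slc15a2 it was detected in 0 of 3 control and 3 of 3 Dnmt3a-deleted samples, and so entered the test through the latter alone. The bound from its observed means was 1.23-fold higher there (adjusted p 0.7, limma), and the 95% interval of its difference ran from 0.03 to 0.77. Its unprocessed signal of 93.8 in Dnmt3a-deleted replicate 3 lay under the 95.8 of control replicate 1, so before normalization the groups overlapped; that array was also the dimmest. Slc30a1, the zinc exporter of the plasma membrane, differed by -0.55 ± 0.35, with control replicate 3 at 9.01 and the other 5 arrays between 7.42 and 8.03.

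Slc39a8, an importer of zinc and manganese, read 6.09, 6.21 and 6.13 in control mucosa and 5.41, 6.11 and 4.85 in the Dnmt3a-deleted mice. Replicate 2 lay inside the narrow control range and the other 2 mice below it. The difference of -0.69 ± 0.30 became -0.38 without replicate 3. Slc39a7 had a difference of 0.48 ± 0.21 and was highest in Dnmt3a-deleted replicate 3, at 10.21, with 9.17 to 9.78 in control. Its 3 kept probes ran from -0.35 to 0.53, and in that mouse the dimmest of them was below all controls. Slc39a11 read 11.28 to 11.48 in control, 11.47 and 11.59 in Dnmt3a-deleted replicates 1 and 2, and 9.99 in replicate 3, so its difference of -0.37 ± 0.40 turned to 0.14 without that array. Slc39a4, the main zinc importer of the intestinal brush border, read 11.82, 12.09 and 10.47 against 11.53, 11.42 and 11.65, a difference of 0.07 ± 0.39. The lowest value was that of control replicate 3, without which the difference was -0.42.

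Metallothioneins, which bind zinc and are induced by it, did not pass the test either. Mt1 read 13.67 to 14.42 in the control mice and 13.72 to 14.03 in the Dnmt3a-deleted mice, a difference of -0.24 ± 0.23. Mt2 read 6.28, 6.65 and 6.30 against 6.12, 6.11 and 6.11. All 3 Dnmt3a-deleted values lay below the controls, with a difference of -0.30 ± 0.16.

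**Figure D3:**
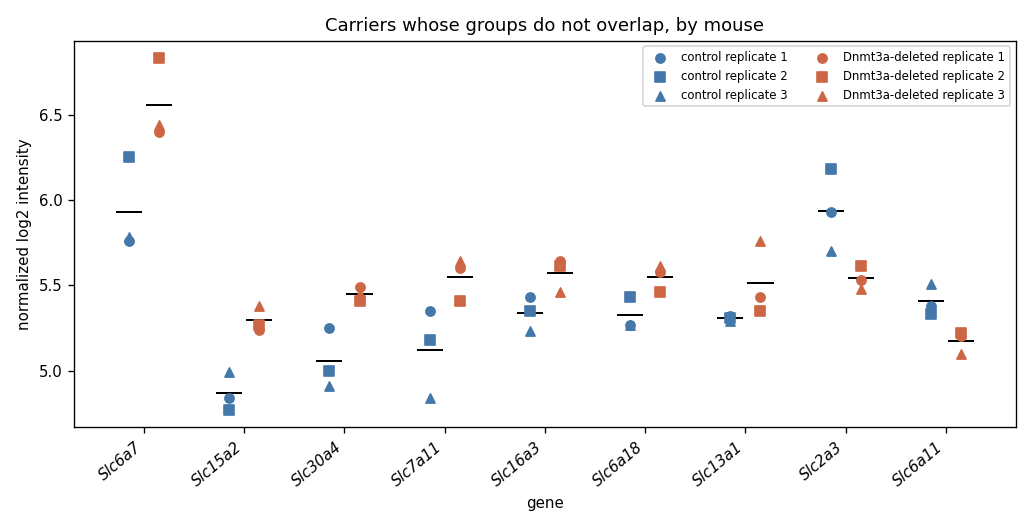
Normalized log2 intensity (vertical axis) of the 9 carriers whose groups do not overlap; points are mice and short bars group means, blue for control and red for Dnmt3a-deleted. The first 7 genes are higher and the last 2 lower in Dnmt3a-deleted mucosa, and all but some values of Slc6a7 and Slc2a3 lie under 6.

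Carriers of other substrates had 14 tested genes, 6 higher and 8 lower. Slc13a2, the sodium-coupled carrier of succinate and citrate, was among those well above background, at 12.26, 11.66 and 12.24 in control mucosa and 12.23, 12.19 and 12.57 in the Dnmt3a-deleted mice, and differed by 0.27 ± 0.22, or 0.15 without replicate 3. Slc13a1, the sulfate carrier, read 5.32, 5.31 and 5.29 against 5.43, 5.35 and 5.76 without overlap, and its difference of 0.21 ± 0.17 became 0.08 without replicate 3. Before normalization the groups overlapped, with Dnmt3a-deleted replicate 3 under control replicate 3. Slc6a11, a carrier of the transmitter GABA, was the other gene with all Dnmt3a-deleted values below control, 5.38, 5.33 and 5.51 against 5.20, 5.22 and 5.10. It was detected in 3 of 3 control and 1 of 3 Dnmt3a-deleted samples, with a difference of -0.23 ± 0.15. The taurine carrier Slc6a6 and the creatine carrier Slc6a8 differed by -0.39 ± 0.34 and 0.18 ± 0.31. Without replicate 3 the difference of Slc6a6 was -0.14, and with all 6 arrays its other kept probe gave -0.01.

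Probes of the same gene differed. Of 32 genes of the symbol rule with several kept probes, 13 had probes that differed in sign, and for 3 the probes differed by more than 1. The serotonin carrier Slc6a4 had a difference of -0.72 at a probe reading 6.90, 8.22 and 7.73 in the control mice and 7.74, 6.92 and 6.02 in the Dnmt3a-deleted mice, and of 0.65 at a dimmer probe that reached 6.74 in replicate 3. The brighter probe was lowest and the dimmer probe highest in that mouse, without which the brighter probe gave -0.29. Slc39a4 gave 0.07 and -1.21, the second probe reading 8.51, 8.36 and 7.05 against 7.43, 7.35 and 5.53. The 4 probes of Slc39a5, a zinc importer, gave differences from -1.06 to 0.24.

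Over all genes such splits were widest on the array that stood apart. The gap between the brighter 2 probes of a gene departed by more than 1 from its usual value in Dnmt3a-deleted replicate 3 for 671 of 3009 genes (22.3%), against 0.0665% to 0.665% of genes on the other arrays. Among the 23 genes of the symbol rule with such a pair, 2 departed on that array and 2 on control replicate 3. Their median departure was 0.22 on that array and 0.22 to 0.30 on the others. Over all genes it was 0.46 on that array and 0.14 to 0.16 on the others. Dnmt3a-deleted replicate 3 was the highest or the lowest of the 6 arrays for 47 of 85 carriers (55.3%), against 67.5% of all genes.

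**Figure D4:**
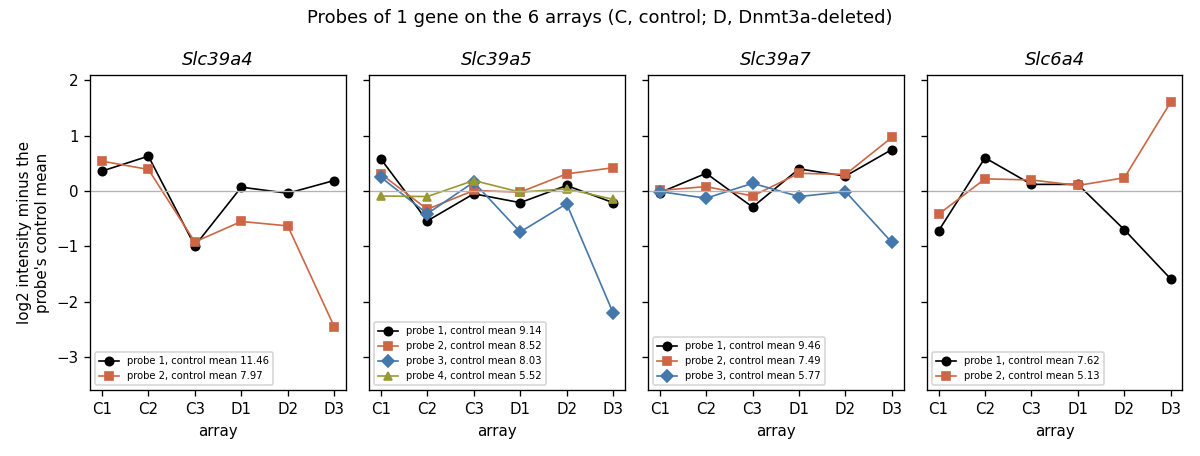
Log2 intensity minus the probe's control mean (vertical axis) on the 6 arrays for each kept probe of 4 carriers; C1 to C3 are control and D1 to D3 Dnmt3a-deleted replicates. Probes of 1 gene run close together on most arrays and part on D3, where for Slc39a5 they spread from 0.42 to -2.20. The 4 carriers shown are those whose probes gave the most unlike differences.

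Genes that work beside the carriers were counted from lists of known roles, and 0 passed the test in any list. Of 14 amino acid starvation genes 5 were higher and 9 lower, with a median of -0.06. The groups did not overlap for 4 of the 14, where 9.22% of all genes did so upward and 5.3% downward. They were Shmt2 (0.61 ± 0.24) and Mthfd2 (0.40 ± 0.20), enzymes of mitochondrial folate metabolism, both higher, and Phgdh (-0.70 ± 0.23), the first enzyme of serine synthesis, and Cebpb (-0.29 ± 0.15), both lower. Without Dnmt3a-deleted replicate 3 the differences of Shmt2, Mthfd2 and Phgdh were 0.37, 0.24 and -0.45. Atf4, the transcription factor of this response, and Asns, its target asparagine synthetase, differed by 0.00 ± 0.25 and 0.02 ± 0.19. Atf3, Ddit3 and Chac1 differed by -0.57 ± 0.60, -0.30 ± 0.61 and -0.88 ± 0.52, and each was highest in control replicate 3. The summed linear levels of the list were 10400, 9870 and 17000 in the control mice and 8900, 9340 and 13200 in the Dnmt3a-deleted mice. Of 7 brush border peptidases 3 were higher and 4 lower (median -0.01), and the 4 tested genes of the sodium and proton gradient had a median of -0.06. Of 3 tested receptors of short fatty acids 2 were higher and 1 lower (median 0.18). Ffar2 and Ffar3, receptors for acetate, propionate and butyrate, differed by 0.28 ± 0.20 and 0.18 ± 0.16, with overlapping groups. Hcar2, a receptor for butyrate and related acids, read 5.67, 6.04 and 6.28 in control mucosa and 5.38, 5.38 and 5.44 in the Dnmt3a-deleted mice, without overlap, a difference of -0.60 ± 0.19. It is also known from white blood cells, whose markers had lower means as given above, and their part was not tested.

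Promoter windows were listed for 61 of the 85 tested carriers. Of these, 39 (63.9%) had a CpG ratio of at least 0.6, against 66.9% of all tested genes with a window. The share was 14 of 16 for zinc carriers and 11 of 21 for amino acid carriers. Carriers with the higher ratio split into 21 higher and 18 lower (median difference 0.02), and those with the lower ratio into 15 and 7 (median 0.09). The motif TGATGNAA, searched on both strands, lay in 3 carrier windows (4.92%), those of Slc7a11, Slc1a4 and Slc7a7, and in 2.41% of all windows. The motif TGCNCNC, also searched on both strands, lay in 33 carrier windows (54.1%) and in 58.3% of all windows. It is looser than the core of the metal response element, which has A or G at the fourth base, so not every match is such a core. By class the motif TGCNCNC lay in 4 of 21 amino acid, 5 of 8 sugar, 4 of 4 monocarboxylate, 2 of 3 peptide, 12 of 16 zinc and 6 of 9 other carrier windows.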

How the data were processed

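Per the labels' protocols, column-purified, DNase-treated RNA was amplified to biotin-labelled cRNA. The authors deposited, for every probe, a linear signal intensity, not background-corrected as the values show, with a detection p-value beside each deposited signal. From the values that p-value is 2-sided about background, small also for 6320 to 7410 dimmer probes per array. Their separate table of processed intensities was linear and uncentred, from the values, with column medians of 92.9 to 94.8. It served as an alternative. The sources used here do not give its normalization, the scanner or the slides. The precision is limited by the number of arrays.

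The intensities were background corrected (normexp, saddle-point method, offset 16), quantile normalized and put on the log2 scale with limma 3.58.1 in R 4.3.3. A probe counted as detected at a p under 0.05 with a signal above the array's background level (median of probes at p over 0.97). Kept were the 21183 probes detected on at least 3 arrays, and a gene took its kept probe of highest mean. For a gene detected in 1 group alone the fold is a bound: the brighter group's mean against, per array of the other group, the lowest detected signal or the probe's own, whichever was higher. That bound does not allow for sampling error. Probes were named through the platform annotation, with symbols updated by gene number from RefSeq (GRCm38.p6): 34773 had 1 symbol, 18 several and 10344 none.

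All 6 arrays were fitted with lmFit and eBayes, 2-sided, without covariates, and p-values were adjusted over 11370 genes (Benjamini-Hochberg, threshold 0.05). Intervals are limma's. Members, lists and alternatives were chosen with earlier results of these data known, and the lists are described by counts and medians. Named were carriers with non-overlapping groups, up to 3 per class with the highest probe intensity and the 1 with the smallest p, the partners Bsg and Emb, and Mt1 and Mt2; the choice of any other gene followed sight of its values. Alternatives covered background correction, normalization, offset, filter, probe rule, moderation, array weights, sex, the replicate number as a block and each array left out.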

Additional observations from a re-analysis of the deposited data

How the results depend on the processing

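Across the 20 alternatives 0 carriers passed the test. The smallest adjusted p of a carrier was 0.7, and it ran down to 0.12 with array weights (Slc2a6), which gave Dnmt3a-deleted replicate 3 a weight of 0.154 and replicate 1 a weight of 6.04. With array weights 24 carriers (28.2%) had an unadjusted p under 0.05, against 19.5% of all genes, and 15 genes were called, against 1. That count was 0 without background correction and 0 to 1 when arrays were left out, 0 of them without control replicate 2. The replicate number as a block changed no call (0 carriers and 1 gene called, smallest adjusted p of a carrier 0.758); same-numbered samples correlated at -0.13, -0.10 and 0.03, so the numbers do not pair the mice. With sex as a term the smallest adjusted p of a carrier was 0.338. The 4 carriers (4.71%) at an unadjusted p under 0.05 became 1 (1.18%) without background correction, with the authors' values or with an offset of 50. They became 8 (9.41%, all genes 5.09%) with a trended, robust variance and 11 (12.9%, all genes 14.6%) with sex as a term.

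Class medians were small and several moved. Over all carriers (0.04) the median was -0.06 with median scaling and 0.00 to 0.08 with an array left out. Amino acids (0.11) gave 0.00 with array weights, 0.05 without background correction, 0.04 with the authors' values or median scaling, and 0.07 to 0.17 with an array left out. Monocarboxylates (-0.07) gave -0.11 to 0.04 with an array left out. Sugars (0.11) gave 0.05 without background correction and with the authors' values, 0.00 with median scaling, 0.01 with Dnmt3a-deleted replicate 3 removed before normalization, and -0.03 to 0.13 with an array left out. Peptides (0.00, 3 genes) gave -0.23 without a filter, -0.19 over all kept probes, 0.39 with array weights and -0.29 to 0.18 with an array left out. Zinc (-0.02) gave -0.14 with median scaling, -0.11 with sex as a term and -0.09 to 0.05 with an array left out. The causes were not tested.

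The sign of 16 of the 49 carriers and related genes described, none past the test, turned under some settings. With array weights it turned for Slc7a4 (-0.02), Slc1a4 (-0.25), Slc2a1 (0.01), Slc5a1 (-0.15), Slc15a1 (0.57), Slc39a4 (-0.09), Slc39a11 (0.03), Bsg (0.13), Slc6a4 (0.18) and Asns (-0.01). With median scaling it turned for Slc5a1 (-0.03), Slc2a13 (-0.11), Slc39a4 (-0.04) and Asns (-0.09), and with loess for Slc2a13 (-0.01), Slc15a1 (0.02) and Asns (-0.01). With Dnmt3a-deleted replicate 3 removed before normalization it turned for Slc5a1 (-0.07), Slc15a1 (0.19), Slc39a11 (0.14) and Bsg (0.19). Atf4 (0.00) gave 0.01 with the authors' values and 0.11 with sex as a term. Sex as a term also gave 0.00 for Slc2a13 and 0.01 for Slc15a1, which also read 0.01 without background correction and with an offset of 50. The mean of a gene's probes gave -0.57 for Slc39a4 and -0.16 for Asns. Leaving out 1 array gave -0.06 to 0.46 for Slc1a4, -0.07 to 0.26 for Slc5a1, -0.05 to 0.20 for Slc2a13, -0.23 to 0.10 for Slc5a8, -0.73 to 0.16 for Slc16a9, -0.29 to 0.18 for Slc15a1, -0.42 to 0.39 for Slc39a4, -0.66 to 0.14 for Slc39a11, -0.37 to 0.17 for Bsg, -0.06 to 0.44 for Slc6a8, -0.04 to 0.09 for Slc16a1, -0.26 to 0.14 for Atf4 and -0.07 to 0.18 for Asns.

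Precision is limited by 3 arrays per group, by signals near background (45 of 130 carriers could not be tested) and by Dnmt3a-deleted replicate 3, without which the differences of carriers such as Slc1a5, Slc38a1, Slc38a2 and Slc39a8 shrank by more than 1.5 times.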
